A study of Drosophila melanogaster with 7 samples.

Results

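The basement membrane genes of the Drosophila embryo were followed on 7 spotted cDNA arrays that set lola mutant embryos against control embryos. The set held 10 genes: vkg and Col4a1 for collagen IV, LanA, LanB1 and LanB2 for laminin, Ndg for nidogen, trol for perlecan, and the matrix genes SPARC, Ppn and Tig. A feature (a spotted cDNA clone) was taken when the platform's annotation gave it a single gene and that gene was one of the 10. This found 11 features for 9 of the genes, out of 10227 features tested and 7583 genes with at least 1 such feature. LanB2 had no feature of this kind and was not analysed here. Clone GM25163, annotated to both trol and mil, fell outside the rule. Mutant embryos were w1118 and homozygous for lolaORE76, with sca-GAL4 on one copy of the mutant chromosome and UAS-tau-eGFP on the other. Controls were w1118 with the same sca-GAL4 driver and UAS-tau-eGFP reporter on chromosomes without the allele. Both were collected 10 to 12 hours after egg laying and picked by reporter fluorescence in the nervous system, about 300 embryos for each RNA sample, in 7 independently collected pairs. The allele is a nonsense mutation in the region common to all isoforms, the embryos keep Lola supplied by the mother, and loci other than lola on the mutant chromosome could not be told apart from it.

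A basement membrane is a thin sheet of extracellular matrix that underlies epithelia and wraps muscle, gut, fat body and the nervous system. Laminin, a trimer of an alpha, a beta and a gamma chain, assembles at the cell surface and binds integrins and dystroglycan. Collagen IV, whose chains in the fly are encoded by Col4a1 and vkg, forms a second network that gives the sheet its strength, while nidogen and the heparan sulphate proteoglycan perlecan bind to both networks. In the fly embryo, migrating haemocytes secrete much of the collagen IV, laminin, papilin and tiggrin that coats the developing organs, and the ventral nerve cord, on which lola mutants have their best known phenotype, is among the tissues coated.

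Each value is a log2 ratio of mutant over control on a single array, so a pair of RNA samples on its array is the replicate, and 7 pairs set the precision. The numerator of the deposited ratios is not stated there, and mutant over control is the likely direction after all signs were turned. The ratios carry no spot brightness, so a dim spot could not be told from a bright one, levels of different genes could not be compared, and the tissue could not be checked against the level of its markers. Over all features, array 6 was the most variable of the 7 by its weight in limma (0.455), and arrays 2 and 5 the least (2.55 and 2.43). The 4 clones of lola itself had mean ratios from 0.01 to 0.65. A nonsense allele need not lower its transcript, so they do not test how the samples were labelled.

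None of the 11 basement membrane features passed the test when all 7 arrays were used, although most had means above 0. Of the 11, 10 had a mean ratio above 0. By gene averages 8 of 9 were above 0, against 44.9% of all genes, and their median was 0.20, against -0.02 over all genes. The features share the same 7 arrays, so they do not count as independent. In limma, with Benjamini-Hochberg adjustment over all features and a threshold of 0.05, 0 of 11 features rose and 0 fell, where 3.59% of all features rose and 2.52% fell. At an unadjusted p under 0.05 the count was 1 of 11, SPARC, against 19.7% of all features. The RNA came from whole embryos, so fewer cells of a type and less RNA per cell cannot be told apart in any of these ratios.

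**Figure D1:**
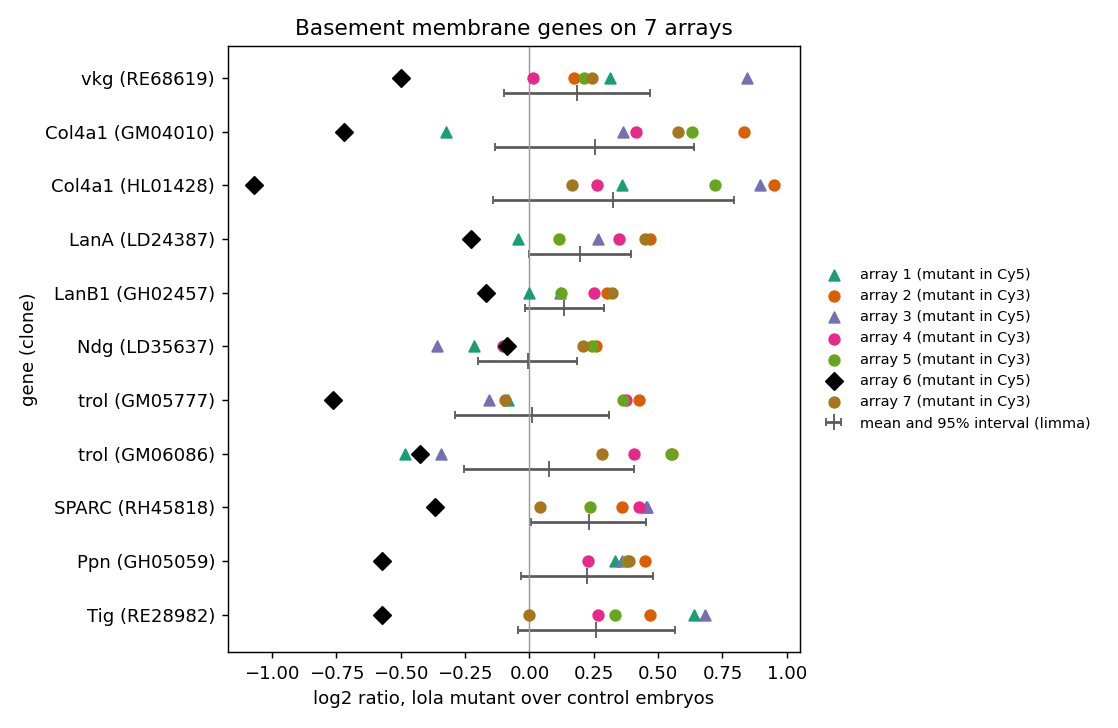
Log2 ratios of lola mutant over control embryos (x axis) for the 11 basement membrane features (y axis, gene with its clone), 1 point per array, with the mean and its 95% interval from limma below each row. Array 6, drawn as a black diamond, is below 0 for 11 of 11 features and is the lowest point of 9, while Ppn lies between 0.23 and 0.45 on the other arrays.

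Of the collagen IV genes, Col4a1 had the largest mean and the widest spread of the 9 genes, with clones averaged, and vkg lay lower. Col4a1, the alpha 1 chain, was measured by 2 clones. HL01428 had a lowest ratio of -1.07 on array 6, a median of 0.36 and a highest of 0.95, with a mean of 0.33 ± 0.69 (SD, n = 7). That is 1.25-fold, with a 95% interval on the log2 scale from -0.14 to 0.80 (limma adjusted p = 0.447). It was above 0 on 6 of 7 arrays, and only array 6 was below 0. GM04010 ran from -0.72 to 0.83 with a median of 0.42, for a mean of 0.25 ± 0.56 (limma adjusted p = 0.478). The clones had a correlation of 0.794 over the 7 arrays and differed in sign on array 1, at 0.36 for HL01428 and -0.32 for GM04010.

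The other collagen IV chain is encoded by vkg, the neighbour of Col4a1 on chromosome arm 2L. Its single clone RE68619 ran from -0.50 on array 6 to 0.84 on array 3, with a median of 0.21. The mean was 0.19 ± 0.40 (SD, n = 7; limma adjusted p = 0.478), or 1.14-fold, with an interval from -0.10 to 0.47. As for HL01428, array 6 was the only array below 0. Averaged over clones, Col4a1 was above vkg on arrays 2, 4, 5 and 7 and below it on arrays 1, 3 and 6, and the correlation of the genes over arrays was 0.705.

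The laminin chains varied less over the arrays than the collagen IV genes and kept close to each other. LanA, the alpha chain of the main laminin trimer, ran from -0.23 on array 6 to 0.47 on array 2, with a median of 0.27. Its mean was 0.20 ± 0.26 (SD, n = 7; limma adjusted p = 0.263), or 1.15-fold, with an interval from -0.0031 to 0.40. LanB1, the beta chain, ran from -0.17 on array 6 to 0.32 on array 7, with a median of 0.12 and a mean of 0.14 ± 0.18 (limma adjusted p = 0.315), with an interval from -0.02 to 0.29. Both chains were below 0 on arrays 1 and 6 and above 0 on the other arrays. Their correlation over the 7 arrays, 0.980, was the highest of the 36 pairs of genes.

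The genes of the linkers between the networks had means near 0. Ndg, the nidogen gene, ran from -0.36 on array 3 to 0.26 on array 2, with a median of -0.09. Its mean was -0.01 ± 0.25 (SD, n = 7; limma adjusted p = 0.974), with an interval from -0.20 to 0.18. That interval overlaps those of both Col4a1 clones, and the genes were not tested against each other. Ndg was the 1 gene of the 9 whose lowest array was not array 6. For trol, the perlecan gene, clone GM05777 ran from -0.76 on array 6 to 0.43 on array 2, with a median of -0.08 and a mean of 0.01 ± 0.42 (limma adjusted p = 0.979). Clone GM06086 ran from -0.48 on array 1 to 0.56 on array 2, with a median of 0.28 and a mean of 0.08 ± 0.47 (limma adjusted p = 0.842). Both trol clones were below 0 on arrays 1, 3 and 6. GM25163, the clone that also carries mil, had a mean of -0.0012 and was above 0 on arrays 1 and 3, where both trol clones were below 0.

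The 3 remaining genes encode matrix proteins that bind to or act on the networks, and all 3 had means above 0. SPARC, which encodes a collagen-binding glycoprotein needed for collagen IV to be deposited properly, ran from -0.37 on array 6 to 0.46 on array 3, with a median of 0.36. Its mean was 0.23 ± 0.30 (SD, n = 7; limma adjusted p = 0.241), or 1.17-fold, and its interval from 0.01 to 0.45 was the only one of the 11 that excluded 0. Ppn, the gene of papilin, a glycoprotein related to the ADAMTS metalloproteases, ran from -0.57 on array 6 to 0.45 on array 2, with a median of 0.36 and a mean of 0.22 ± 0.36 (limma adjusted p = 0.328). On the 6 arrays other than array 6, Ppn was never below 0.23. Tig encodes tiggrin, an integrin ligand found at muscle attachments, and its clone RE28982 ran from -0.57 on array 6 to 0.68 on array 3, with a median of 0.33 and a mean of 0.26 ± 0.44 (limma adjusted p = 0.340).

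Array 6 stood apart for these genes, and their calls depended on it. On it all 9 genes were below 0, from -0.90 for Col4a1 to -0.09 for Ndg, where 52.0% of all genes were below 0. On arrays 2 and 5 all 9 were above 0, with 8 on arrays 4 and 7, 7 on array 3 and 5 on array 1. The mean over the 9 genes was -0.44 on array 6 and between 0.13 and 0.43 on the others. When each array was left out in turn, 0 of 11 features passed without arrays 1, 2, 3, 4, 5 or 7. The share of all genes called in either direction also varied between these fits. It ran from 2.14% without array 2 to 7.08% without array 1, and was 7.6% without array 6. Without array 6, 4 of 11 features rose and 0 fell, where 4.75% of all features rose and 2.83% fell.

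The 4 features that rose without array 6 were those of Ppn, SPARC and Tig and 1 clone of Col4a1. Ppn had a mean of 0.36 ± 0.07 (SD over 6 arrays; limma adjusted p = 0.00650), or 1.28-fold, with all 6 arrays above 0. HL01428 of Col4a1 had a mean of 0.56 ± 0.34 (limma adjusted p = 0.0228), or 1.47-fold, while GM04010 had 0.42 ± 0.40 and did not pass (limma adjusted p = 0.0949). SPARC had a mean of 0.33 ± 0.16 (limma adjusted p = 0.0250) and Tig one of 0.40 ± 0.26 (limma adjusted p = 0.0333). LanA at 0.27, vkg at 0.30 and LanB1 at 0.19 did not pass (limma adjusted p = 0.0754, 0.112 and 0.110). Ndg stayed at 0.01 and the trol clones were at 0.14 and 0.16. No array was left out for a fault known apart from its ratios, so the values with all 7 arrays stand as the main ones. Array 6 stood out by these same ratios, so the adjusted p-values without it are not an independent test.

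**Figure D2:**
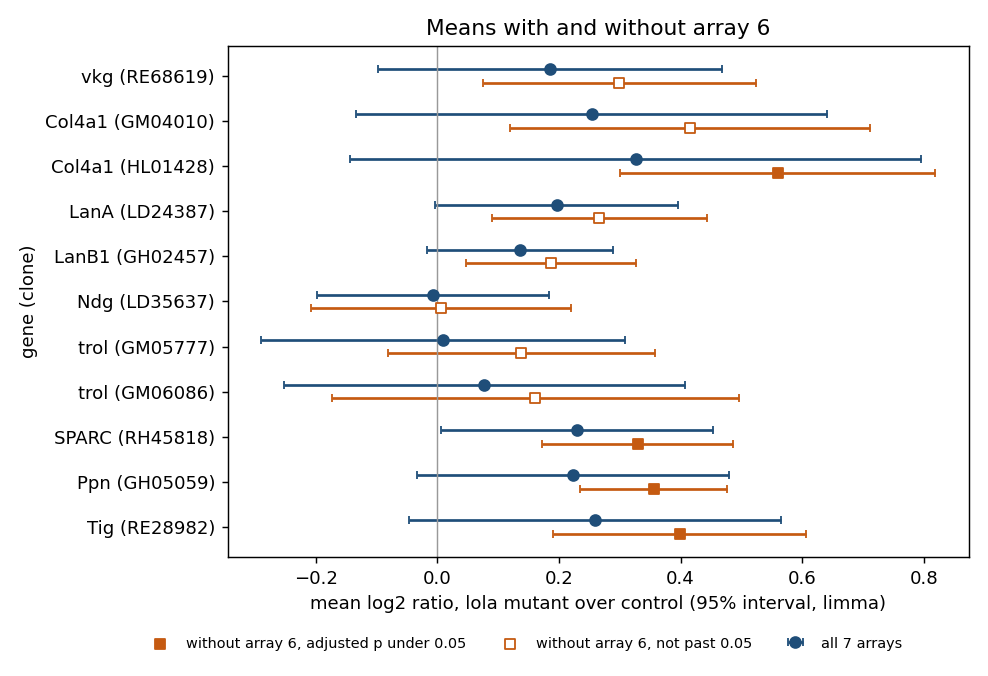
Mean log2 ratio of lola mutant over control embryos with its 95% interval from limma (x axis) for each of the 11 features (y axis), over all 7 arrays (circles) and over the 6 arrays without array 6 (squares, filled where the adjusted p is under 0.05). All 11 means are higher without array 6, as must follow because array 6 is below the mean of each feature. Of the squares, 4 are filled: HL01428 of Col4a1, SPARC, Ppn and Tig.

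Markers of the cells that make or border basement membranes were set beside these values, and they did not all share the low array. Haemocyte markers were not low on array 6: 2 of the 12 measured were below 0 there, and their median was 0.06 on that array, against 0.02 to 0.13 on the others. The haemocyte genes Pxn (clone GH18946), PPO1 and PPO2 stood at 0.48, 0.07 and 0.23 on array 6. The markers below 0 there were NimC4, at -0.75 and -0.64 on its clones, and drpr at -0.07. Muscle markers were low there. All 8 measured, among them the muscle myosin light chain genes Mlc1 and Mlc2 and the tropomyosin gene Tm2, were below 0 on array 6 with a median of -2.13, against -0.75 to 0.93 on the others. On array 7, where the muscle median was -0.75, the median of the basement membrane genes was 0.24. There 8 of the 9 genes were above 0, the lowest being Tig at -0.0026 and SPARC next at 0.04. How single genes of the set follow the muscle markers was not tested. The 6 fat body markers had a median of -0.14 on array 6 and -0.25 to 0.08 elsewhere, with 4 of 6 below 0 on array 6. The 6 markers of neurons and glia were all below 0 on array 6, with a median of -0.30 there and -0.29 to 0.01 elsewhere. The marker lists were not divided by cell subtype or stage, and dim spots among them could not be told from bright ones. They therefore do not show whether the cells that secrete the matrix were unchanged on array 6. The part of tissue make-up in the array 6 ratios was not tested.

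**Figure D3:**
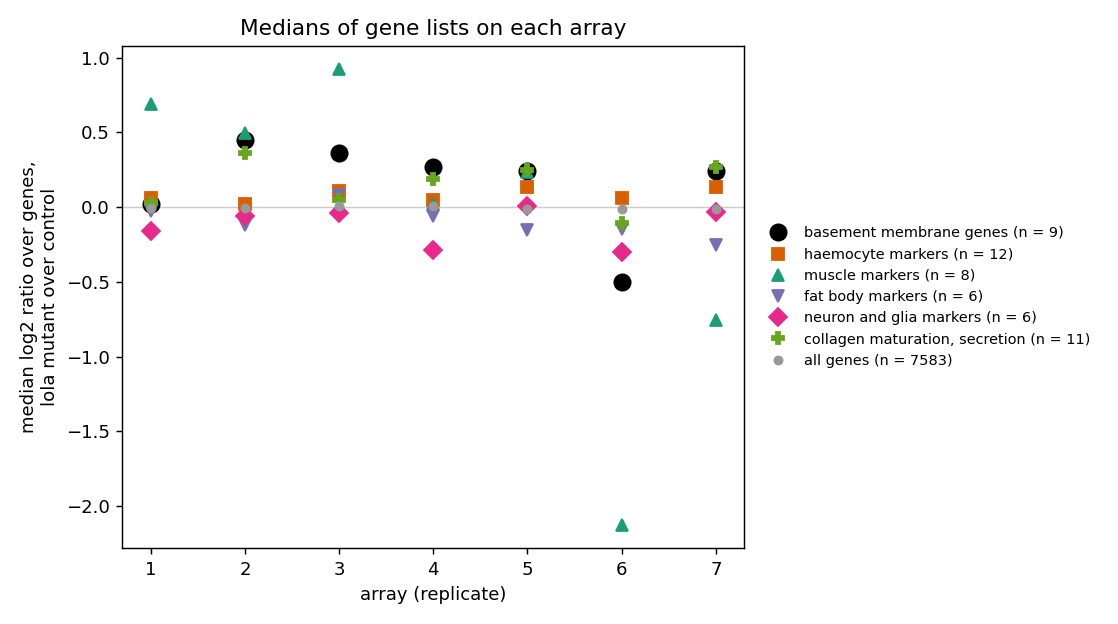
Median log2 ratio of lola mutant over control embryos (y axis) on each of the 7 arrays (x axis) for the basement membrane genes, 4 marker lists, the genes of collagen maturation and secretion, and all genes; n is the number of genes measured. On array 6 the basement membrane genes are at -0.50, the muscle markers at -2.13 and the haemocyte markers at 0.06, with all genes at -0.01.

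The ratios of 2 features differed with the dye that the mutant RNA carried, a count not far from the share over all features. Mutant RNA was labelled with Cy5 on arrays 1, 3 and 6 and with Cy3 on arrays 2, 4, 5 and 7, so array 6 counts among the Cy5 arrays. When dye was added to the model, it passed for 2 of the 11 features, against 11.5% of all features. Clone GM06086 of trol averaged -0.42 ± 0.07 with mutant RNA in Cy5 (SD, n = 3) and 0.45 ± 0.13 with mutant RNA in Cy3 (SD, n = 4; limma adjusted p of the dye term = 0.00474). Clone GM04010 of Col4a1 averaged -0.23 ± 0.55 in Cy5 and 0.61 ± 0.17 in Cy3 (adjusted p of the dye term from limma = 0.0481). The other trol clone, GM05777, was at -0.33 ± 0.37 in Cy5 and 0.27 ± 0.24 in Cy3 and did not pass for dye (adjusted p of the dye term from limma = 0.0801).

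Most of the other features also had the lower mean when the mutant RNA was in Cy5. This held for 10 of 11 features, the exception being vkg, at 0.22 ± 0.68 in Cy5 and 0.16 ± 0.10 in Cy3. The count leans on array 6, and the share of all features with a lower Cy5 mean was not counted. On Cy5 arrays 1 and 3, SPARC was at 0.45 and 0.46 and Tig at 0.64 and 0.68. Both were above their Cy3 means of 0.27, while GM06086 of trol was below 0 on both arrays. In the model with dye, 0 of 11 features passed for genotype, where 8.53% of all features did, and 2 of 11 had an unadjusted p under 0.05 in limma, against 23.4% of all features. The 4 arrays with mutant RNA in Cy3, fitted alone, called 7 of 11 features as risen, namely both Col4a1 clones, LanA, LanB1, GM06086 of trol, SPARC and Ppn. The background in that fit was high, with 12.1% of all features risen and 12.4% fallen. The 3 arrays with mutant RNA in Cy5, fitted alone, called 0 of 11 and 0 of all features in limma, with 1 and 1751 at an unadjusted p under 0.05. With arrays weighted by their variability, 7 of 11 features rose and 0 fell, where 9.64% of all features rose and 10.5% fell. The Cy5 arrays 1, 3 and 6 had the lowest weights (0.526, 0.672 and 0.455), and the Cy3 arrays had 0.837 to 2.55. The weighted fit therefore leaned on the Cy3 arrays and is not separate from the fit of those arrays alone.

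**Figure D4:**
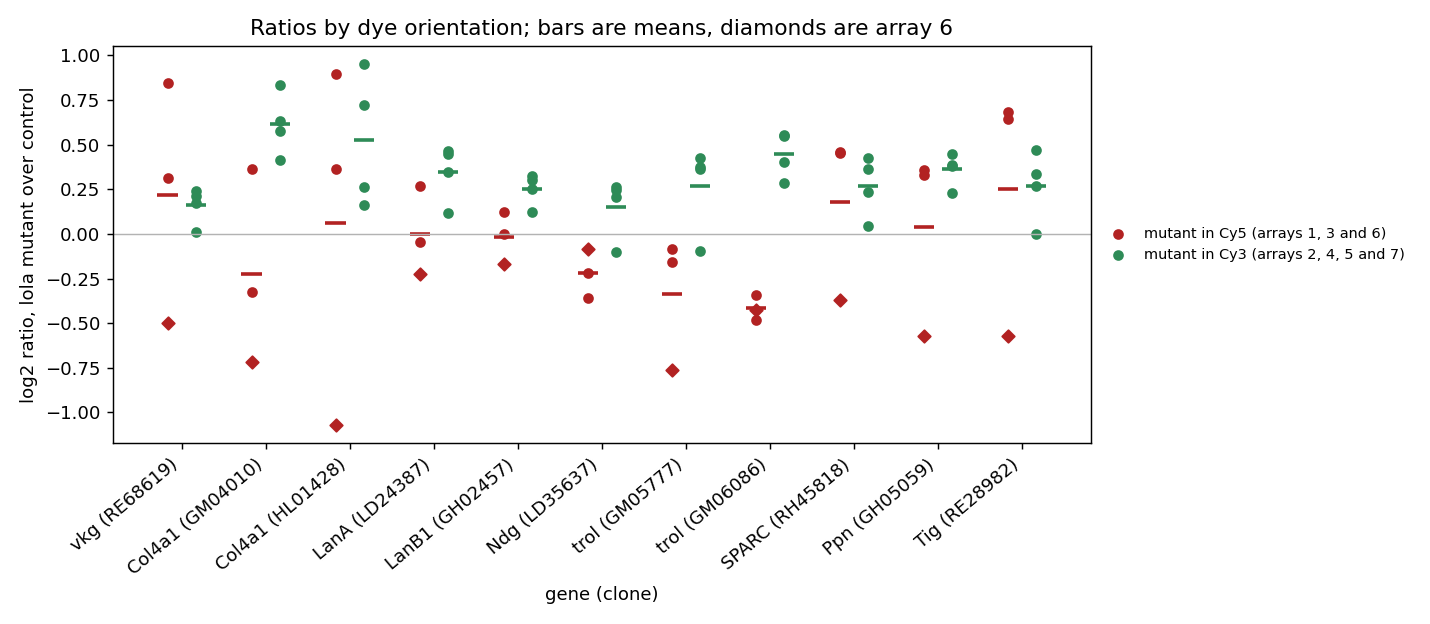
Log2 ratios of lola mutant over control embryos (y axis) for each of the 11 features (x axis), split by the dye of the mutant RNA, with bars at the means and array 6 drawn as diamonds. Clone GM06086 of trol has a mean of -0.42 on the 3 Cy5 arrays and 0.45 on the 4 Cy3 arrays, whereas vkg has 0.22 and 0.16.

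Some pairs of genes followed each other over the arrays. These correlations describe 7 arrays that all genes share, and genes on 1 array are not independent. Over the 36 pairs the median Pearson r was 0.689, from -0.291 for Ndg with vkg to 0.980 for LanA with LanB1. Without array 6 the median was 0.162. A few pairs kept theirs over the other 6 arrays. LanA and LanB1, whose products sit in the same trimer, had an r of 0.960, SPARC and Tig one of 0.851, and Ndg and trol one of 0.777. The collagen IV neighbours vkg and Col4a1 had an r of 0.123 over those 6 arrays. SPARC and Ndg ran opposite to each other there (r = -0.720), as did vkg and trol (r = -0.715). Arrays 1 and 3 are the Cy5 arrays among those left. On them SPARC was at 0.45 and 0.46 and vkg at 0.31 and 0.84. Ndg was at -0.22 and -0.36 there, and trol at -0.28 and -0.25. The part of dye orientation in these correlations was not tested.

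**Figure D5:**
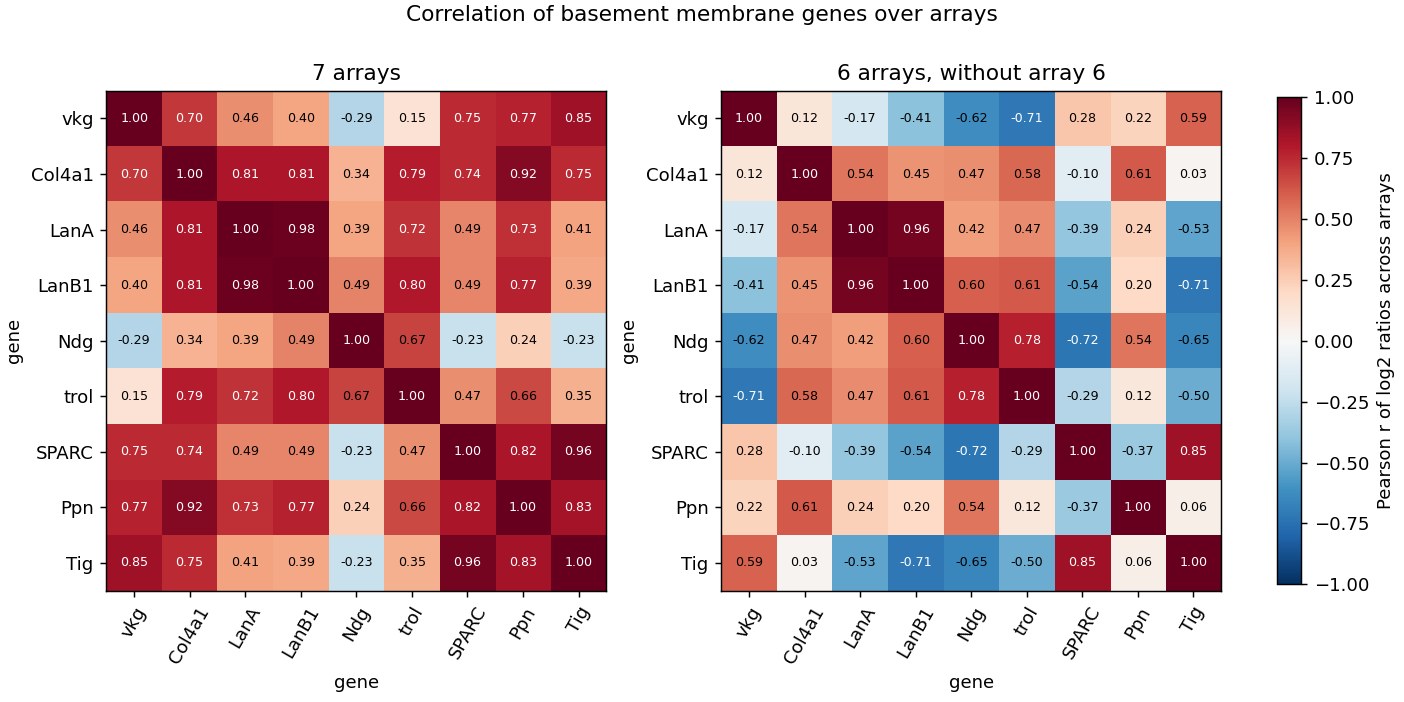
Pearson correlation of log2 ratios between the 9 basement membrane genes, clones of a gene averaged, over the 7 arrays (left panel) and over the 6 arrays without array 6 (right panel); both axes list the genes and colour gives r. The pair LanA and LanB1 keeps an r above 0.95 in both panels, while vkg and Col4a1 have 0.705 in the left panel and 0.123 in the right.

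The genes outside the set with the most similar pattern were sought over the same arrays. Likeness was the Pearson r with the mean of the 9 genes over 7 arrays. The first 5 were kkv, a chitin synthase gene of the cuticle (r = 0.995), IP3K1, an inositol trisphosphate kinase gene (0.991), Nep2, a neprilysin-type peptidase gene (0.991), Fkbp14, which encodes a prolyl isomerase of the endoplasmic reticulum (0.986), and neo, which encodes a zona pellucida domain protein of the apical matrix (0.981). Without array 6 their r values lay between 0.839 for neo and 0.949 for kkv, and their ranks ran from 3 for kkv to 56 for neo. Those 6 arrays are among the 7 by which the genes were picked, so these values are no separate check. By gene averages none of the 5 passed in limma, the nearest being kkv at 0.27 ± 0.20 (adjusted p = 0.0684). On array 6 they ran from -0.84 for Nep2 to -0.17 for kkv.

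Other matrix proteins held the only rises among the genes of the pathway when all 7 arrays were used. Of 11 measured, 4 rose and 0 fell, where 3.51% of all genes rose and 2.53% fell, and their median was 0.09, against -0.02 over all genes. Pxn, the gene of peroxidasin, which cross-links collagen IV and is made by haemocytes, had a mean of 0.53 ± 0.12 on clone GH18946 (SD, n = 7; limma adjusted p = 0.00111), or 1.45-fold. That clone ran from 0.38 to 0.71, with 0.48 on array 6, and passed without any single array. Its other clone, SD07234, had 0.18 ± 0.21 and did not pass (limma adjusted p = 0.215). Loxl1, a lysyl oxidase-like gene, had the largest mean, 0.97 ± 0.80, with ratios from -0.44 on array 1 to 1.70 on array 4 (limma adjusted p = 0.0449). Its call held only without array 1 and was lost without any other array (limma adjusted p from 0.00621 to 0.146).

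The other 2 that rose act at the cell surface. Ten-m, a teneurin gene, had a mean of 0.35 ± 0.22 (SD, n = 7; limma adjusted p = 0.0269) and passed without array 1 or 6, but not without array 2, 3, 4, 5 or 7 (limma adjusted p up to 0.0852). The glypican gene dlp had 0.22 ± 0.09 (limma adjusted p = 0.0347), with 7 of 7 arrays above 0, and passed only without array 1 when single arrays were left out (limma adjusted p from 0.0464 to 0.110). The matrix gene mspo ran from -0.46 on array 6 to 0.81 on array 3 and passed without array 6, at 0.48 (limma adjusted p = 0.0318), but not with all arrays (limma adjusted p = 0.217). Without array 6, 3 of the 11 rose and 0 fell, where 4.73% of all genes rose and 2.86% fell. The clones of wb, the gene of the other laminin alpha chain, were at 0.10 ± 0.20 and 0.05 ± 0.22, both short of the threshold (limma adjusted p = 0.508 and 0.822).

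None of the genes that receive, mature or remodel the matrix passed with all arrays. Of 9 matrix receptor and adhesion genes, 0 rose and 0 fell in limma, with 2 at an unadjusted p under 0.05, a share near the 20.2% of all genes at that level. The called shares of all genes were again 3.51% and 2.53%. The highest mean was that of clone GH09323 of Dg, the dystroglycan gene, at 0.24 ± 0.15 (SD, n = 7; limma adjusted p = 0.0513), which passed without array 6, at 0.29 (limma adjusted p = 0.0157). The other Dg clone, LD04782, was at 0.10 ± 0.14 (limma adjusted p = 0.436). The lowest was scb, an integrin alpha chain gene, at -0.06 ± 0.15 (limma adjusted p = 0.646). The integrin beta chain gene mys was at 0.01 and 0.08 on its clones. Of 8 measured genes of matrix remodelling, 0 rose and 0 fell in limma, also at an unadjusted p under 0.05 (0 of 8), from AdamTS-B at -0.02 to loh at 0.17. The matrix metalloprotease genes Mmp1 and Mmp2 were on that list but were not among those measured. Timp, the gene of the inhibitor of matrix metalloproteases, was at -0.62 on array 6 and between -0.05 and 0.34 on the others.

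Some genes of collagen maturation and secretion were low on array 6 and others were not. Of 11 measured, 0 rose and 0 fell in limma with all arrays, against 3.51% and 2.53% of all genes, and 5 had an unadjusted p under 0.05, against 20.2% of all genes. Their median was 0.14. Plod, the lysyl hydroxylase gene of collagen IV, was at -0.23 on array 6 and between 0.14 and 0.44 on the others, with a mean of 0.25 ± 0.23 (SD, n = 7; limma adjusted p = 0.121), and passed without array 6, at 0.33 (limma adjusted p = 0.0140). The serine protease-like gene scaf had the highest mean, 0.41 ± 0.45 (limma adjusted p = 0.125), and also passed without array 6 (limma adjusted p = 0.0176). Tango1, which loads bulky cargo such as collagen at exit sites of the endoplasmic reticulum, was at 0.27 ± 0.19 and above 0 on 7 of 7 arrays (limma adjusted p = 0.0588), with 0.33 on array 6. PH4alphaEFB, a prolyl hydroxylase gene expressed with collagen IV, was at 0.18 ± 0.10, also above 0 on 7 of 7 arrays (limma adjusted p = 0.0838). The lowest was PH4alphaSG2, a salivary gland prolyl hydroxylase gene, at -0.18 ± 0.21 (limma adjusted p = 0.237).

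Haemocyte markers changed in both directions over the 7 arrays. Of 12 measured, 3 rose and 1 fell, against 3.51% and 2.53% of all genes. Beside Pxn, the prophenoloxidase genes PPO1 and PPO2 rose, with means of 0.40 ± 0.19 (SD, n = 7; limma adjusted p = 0.0122) and 0.26 ± 0.11 (limma adjusted p = 0.0233), each above 0 on 7 of 7 arrays. PPO1 passed without any single array, and PPO2 not without array 2, 3, 4 or 5 (limma adjusted p up to 0.0913). NimC4, a receptor gene for apoptotic cells, fell on both of its clones, with means of -0.44 ± 0.29 and -0.36 ± 0.23 (limma adjusted p = 0.0257 and 0.0323) and 7 of 7 arrays below 0, but neither clone passed without array 2 or 4 (lower limma adjusted p of the clones up to 0.0918). The GATA factor gene srp, which is needed to make haemocytes and fat body, was at 0.08 ± 0.16 (limma adjusted p = 0.533). In the fat body list Lsd-1, a perilipin gene, fell to a mean of -0.45 ± 0.31 (limma adjusted p = 0.0314), a call that held only without array 1 when single arrays were left out (limma adjusted p from 0.0115 to 0.101). Among neuron and glia markers Gs2, a glutamine synthetase gene, fell to -0.57 ± 0.26 (limma adjusted p = 0.00594) and passed without any single array. None of the 8 muscle markers passed in limma, also at an unadjusted p under 0.05 (0 of 8), with means from -0.35 to 0.18.

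The mean ratios of the basement membrane genes on the second chromosome overlapped those of the genes on other chromosomes. The part of other loci on the mutant chromosome was not tested. The 5 on the second chromosome, which carries lola, were vkg, Col4a1, LanB1 and Tig on arm 2L and Ndg on 2R, and their mean ratios ran from -0.01 to 0.29 with a median of 0.19. The 4 on other chromosomes, trol on X, LanA on 3L and SPARC and Ppn on 3R, ran from 0.04 to 0.23 with a median of 0.21.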

How the data were processed

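The authors processed GenePix spot intensities with limma (its version is not given in the sources used here), without background correction, by print-tip loess within arrays and scaling between arrays. They deposited the resulting log2 ratios of 10376 features. There were 0 missing values, and column medians ran from -0.0194 to 0.0187. Left out were 149 control spots. The deposited columns had been turned to 1 direction: in each of the 45 features whose mean exceeded 1 in size, the Cy5 and the Cy3 arrays had means of equal sign. Every sign was then turned, because all 580 features found in the study's own list of changed clones had the sign opposite to the one printed there, where positive means more RNA in the mutant. The lowest correlation between arrays was -0.024 among arrays with mutant RNA in Cy5, 0.468 among those with it in Cy3, and -0.176 across orientations.

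The platform's annotation gave 1 gene for 8598 tested features, several for 517 and none for 1112. Of the 8598, 8454 were matched by gene ID to a RefSeq gene table (Release 6 plus ISO1 MT) for current symbols, and 19 that the study assigned to retrotransposons or to several sequences were set aside from gene names. None of these was a basement membrane feature. No coordinates or sequences are printed.

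Models were fitted in R 4.3.3 with limma 3.58.1 (lmFit, then eBayes), two-sided, with Benjamini-Hochberg adjustment over 10227 features. The study's methods name the same tool but count all 10376 features, and keeping the control spots was an alternative. Genes of a list were counted once, by any feature that passed. The fit was tested on simulated data with independent normal noise for each feature. These had no dye effect, no array more variable than the others and no correlation between genes, so the fit was not tested under such conditions. For medians and correlations the features of a gene were averaged. Alternatives were each array left out, a dye term, each dye orientation alone, array weights, a minimum fold of 1.1, a robust variance prior, quantile normalisation, centring, control spots kept, and fitting gene averages. Named were every feature of the set, the genes of each list that passed or else its highest and lowest, and the 5 genes most alike; others named in the text were chosen after their values were seen. The genes and lists were chosen with earlier results of these data known. The labels call the 7 pairs independent collections.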

Additional observations from a re-analysis of the deposited data

Results flagged for a closer look

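For 2 features of the set, array 6 lay so far below the other arrays that its gap to the nearest of them, as a share of the whole range, passed Dixon's limit for 7 values. Chance flags about 1 in 20 such groups, and 11 features were examined, which share the array. Ppn was at -0.57 on array 6 with a gap of 0.782 of its range, and clone HL01428 of Col4a1 was at -1.07 with a gap of 0.611. Muscle markers were also low on array 6, with a median of -2.13, and haemocyte markers were not, with a median of 0.06. Their part in these values was not tested.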

How the results depend on the processing

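The main fit is already a paired analysis, because each ratio sets a mutant sample against the control sample of its own pair. There is a single group of ratios, so no further pairing was possible. The number of basement membrane features that rose was 0 with all arrays, 7 of 11 with array weights and 7 of 11 on the arrays with mutant RNA in Cy3 alone, where 9.64% and 12.1% of all features rose, and from 0 to 4 when single arrays were left out. It stayed at 0 under the other settings, and the number that fell was 0 under all. Array weights were lowest on the Cy5 arrays, so the weighted fit and the fit of the Cy3 arrays alone are not separate. Of all genes, 2.14% to 7.6% were called in either direction when single arrays were left out. The median over the 9 genes was -0.0020 on the Cy5 arrays alone, against 0.20 with all arrays, and 0.18 to 0.30 with single arrays left out. The dye term passed for 1 to 3 features without single arrays. On the Cy5 arrays alone 5 features had the opposite sign to their mean over all arrays: GM04010 of Col4a1 at -0.23, LanA at -0.0020, LanB1 at -0.0162, and the trol clones at -0.33 and -0.42. Ndg turned positive on the Cy3 arrays alone (0.15) and with array weights (0.11), and lay between -0.0519 and 0.0513 without single arrays. GM05777 of trol was at -0.0336 with the dye term and between -0.0602 and 0.14 without single arrays, and GM06086 between -0.0023 and 0.17.

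Among the other lists, with all arrays the genes called were 0 for receptors, 0 for collagen maturation, 4 for other matrix proteins, 4 for haemocytes, 1 for fat body and 1 for neurons and glia. Receptors had 1 with array weights, the dye term, the Cy3 arrays alone, quantile normalisation or centring. Collagen maturation had 5 with array weights, 1 with the dye term and 7 on the Cy3 arrays alone. Of all genes, 21% were called with array weights, 8.65% with the dye term and 26.3% on the Cy3 arrays alone, against 6.04% in the main setting. With a minimum fold of 1.1, haemocytes and other matrix proteins had 1 each and fat body 0, and on the Cy5 arrays alone all these lists had 0. Neurons and glia had 2 with the dye term. Without single arrays the counts ran from 0 to 2 for collagen maturation, 0 to 1 for receptors and for fat body, 2 to 4 for haemocytes and 1 to 4 for other matrix proteins. As no value was missing, the setting that treats missing values differently was not run. The ratios hold no signal over background, so its effect on these values was not tested.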
